A study of Mus musculus with 6106 samples.

Results

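Oxidative phosphorylation is the last stage of respiration in mitochondria. Complex I takes electrons from NADH and complex II takes them from succinate, both pass them to ubiquinone, complex III hands them on to cytochrome c, and complex IV gives them to oxygen. Complexes I, III and IV pump protons across the inner membrane, and complex V, the ATP synthase, makes ATP from their return. Tregs (regulatory T cells, a Foxp3-expressing CD4 lineage that restrains other immune cells) are known to draw on this pathway, and T cell receptor (TCR) engagement is known to change the metabolism of T cells. Here the nuclear genes of the 5 complexes were described in splenic Tregs that differ in the level of an Nr4a1 reporter. Nr4a1 encodes a nuclear receptor induced soon after TCR engagement, so the reporter is read as a sign of recent TCR signalling.

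The genes were taken by symbol (those starting with Ndufa, Ndufb, Ndufc, Ndufs, Ndufv, Sdh, Uqcr, Cox4 to Cox8 and Atp5, without Ndufaf genes and pseudogenes). Of 89 such symbols among 23725 genes in the table, 79 had at least 50 unique molecular identifiers (UMIs) in the cells used and are called measured. Of the measured genes 74 encode subunits, 36 in complex I, 4 in complex II, 8 in complex III, 11 in complex IV and 15 in complex V. The other 5 (Sdhaf1, Sdhaf2, Sdhaf4, Cox7a2l and Atp5sl) fit the symbols but encode no subunit. Ndufa4 was counted with complex IV, where its protein is now placed. Subunits encoded by the mitochondrial genome are not analysed here. Of the measured genes, Ndufs5 had the fewest UMIs and Cox7a2l the most, 5036 over all cells, and 60 had at least 500.

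All cells came from spleens of male mice aged 10 months on a B6 background with an Nr4a1-Gfp and a Foxp3-Ires-Thy1.1 reporter. The sort kept live cells with TCRb, CD4 and Foxp3-Thy1.1 on the surface and split them by GFP, with 0 to 20 percent called GFPlow, 40 to 60 percent called GFPmed and 80 to 100 percent called GFPhigh. Each bin was run as 1 library with inDrops, a droplet method that tags the 3' ends of transcripts of single cells with UMIs. Every cell thus carried both reporters, and each bin had 1 library and 0 replicates. The number of mice behind a library is not given in the sources used here. A difference between bins therefore cannot be told apart from a difference between libraries, and no test between bins was made. Intervals below are at 95% and cover counting error only.

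Cells with at least 500 UMIs were used, 5435 in all, of which 1537 were GFPmed, 1775 GFPhigh and the rest GFPlow. Median depth was 1085 UMIs in GFPlow and 1129 in GFPhigh and was highest in GFPmed. Totals per bin were 2435870, 2512277 and 2270376 UMIs. A level is given as UMIs per 1000000 UMIs of all genes (UPM), and a count of 0 allows up to 1.32 UPM in GFPhigh, the bin with the fewest UMIs. A level reflects molecules of that gene among all molecules, and levels are compared between bins, not between genes. Between 20 and 29 cell barcodes were shared by any pair of libraries, and 1 by all 3. The 12 Treg markers together were at 4796, 4923 and 6439 UPM in the 3 bins, and Foxp3 itself was at 389.6, 317 and 359 UPM. Marker transcripts of other cells were present in each bin. Erythroid genes summed to 1428, 3038 and 1084 UPM, in GFPlow, GFPmed and GFPhigh respectively, B cell genes to 253.7, 336 and 312 UPM, plasma cell genes to 142.9, 83.99 and 352 UPM, myeloid genes to 85.4, 249 and 93.8 UPM, CD8 T or NK cell genes to 54.2, 133.7 and 78.8 UPM, and platelet genes to at most 1.76 UPM. Of the defining markers, Pax5 (B cell), S100a8 and S100a9 (myeloid) and Ppbp, Gp1bb and Gp5 (platelet) were at 0 in all bins. Cells with at least 2 UMIs of these markers were 7.87% of GFPlow, 13.2% of GFPmed and 11.5% of GFPhigh. Values over cells with fewer than 2 UMIs of these markers are given further on. Cytosolic ribosomal protein genes took 25.5%, 29.3% and 25.97% of UMIs, the highest share in GFPmed.

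Transcripts of the oxidative phosphorylation genes made up a larger share of UMIs in GFPhigh than in GFPlow, with GFPmed between them. The summed level of the 79 genes was 12781 UPM (GFPlow), 13781 UPM (GFPmed) and 14455 UPM (GFPhigh). As log2 ratios, GFPhigh over GFPlow was 0.18 (interval 0.16 to 0.20) and GFPmed over GFPlow was 0.11 (interval 0.087 to 0.13). The step from GFPmed to GFPhigh was 0.069 (interval 0.047 to 0.091) with library totals as the scale, and it was -0.0079 with trimmed-mean (TMM) scaling and -0.0085 with median-of-ratios scaling. The direction of that second step thus depends on the scaling, while the first step and the whole range had the same direction under each scaling tried.

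Gene by gene, 59 of 79 were higher in GFPhigh than in GFPlow, beside 54.6% of the 8633 genes with at least 50 UMIs. A fold of 1.2 was used as a rule of size, not as a test. By that rule 29 were higher in GFPhigh, against a background of 26.7%, and 2 were lower, against 20.0%. The median log2 ratio was 0.18, beside 0.036 over all measured genes. The interval of the ratio lay above 0 for 32 genes and below 0 for 0. Among the 5948 genes within the same range of UMIs it lay above 0 for 951 and below 0 for 717. That range is wide, and an interval is narrower with more UMIs. Of the 60 members with at least 500 UMIs, 27 had an interval above 0 and 0 below. Among all 2317 genes with at least 500 UMIs, 533 had an interval above 0 and 450 below. The background shares past 1.2-fold, here and below, were not matched for UMIs either. Of the 60 members with at least 500 UMIs, 22 passed that fold upward and 0 downward. The middle 50% of their log2 ratios ran from 0.030 to 0.33, beside -0.16 to 0.19 for the 2317 genes. At that minimum a larger share of members than of all genes passed the fold upward, and a smaller share downward. The differences were small and spread over many genes, and the 29 genes past 1.2-fold upward were 36.7% of the 79.

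From GFPlow to GFPmed 55 of 79 were higher, beside 45.6% of all genes. Of the 79 genes 17 passed 1.2-fold, against a background of 19.2%, and 3 were lower by that fold, against 24.7%. Of the 60 members with at least 500 UMIs, 13 passed it upward and 2 downward. The first was a larger share, and the second a smaller share, than among the 2317 genes with that minimum. The middle 50% of log2 ratios ran from 4.3e-05 to 0.22 for those members and from -0.23 to 0.096 for those genes. The median of the 79 was 0.086, beside -0.045 over all 8633 genes. With TMM, median-of-ratios and non-ribosomal scaling 63, 63 and 69 were higher. From GFPmed to GFPhigh 48 were higher, beside 59.7% of all genes, and 18 passed 1.2-fold upward and 4 downward, beside 28.9% and 16.4%. The median of 0.080 at that step lay at the background median of 0.079. Under each of the other 3 scalings 40 were higher at that step, and the split past 1.2-fold became 13 upward and 13 downward with TMM or median-of-ratios scaling and 14 and 12 without ribosomal protein genes. The members' median minus the all-gene median was 0.15 over the whole range, 0.13 at the first step and 0.00056 at the second.

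Of the 79 genes 29 had higher levels at each successive bin, 36.7% beside 21.1% of all genes, and 5 had lower levels at each, 6.33% beside 15.9%. A further 26 were highest in GFPmed (32.9% beside 24.5%) and 19 lowest there (24.1% beside 38.5%).

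**Figure D1:**
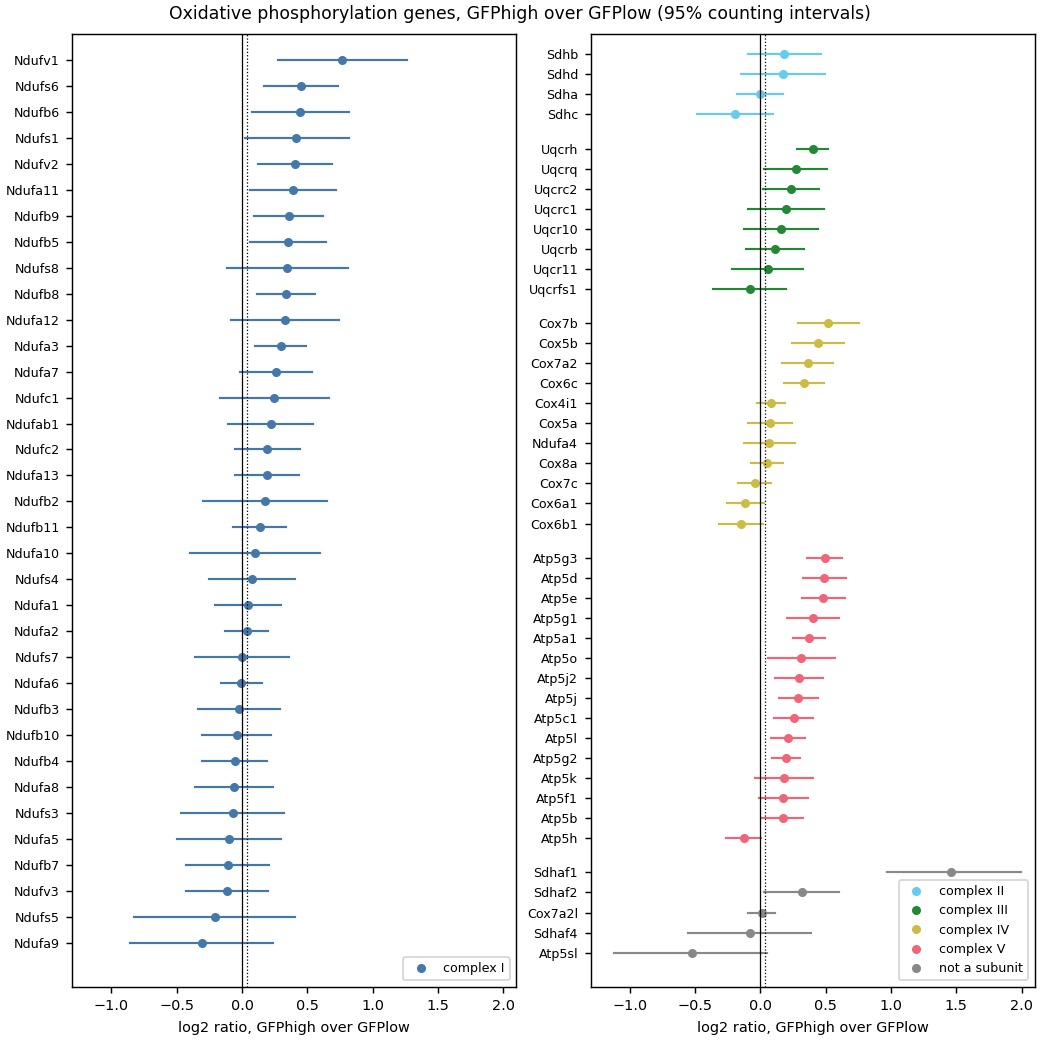
Log2 ratio of GFPhigh over GFPlow (x axis) for the 79 measured genes except 1 that is not reported here (y axis), ordered within its complex, with 95% counting intervals as lines. The solid line marks 0 and the dotted line the median of all 8633 genes. In complex V 14 of 15 points lie above 0, and Sdhaf1, which encodes no subunit, lies farthest to the right at 1.46.

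The complexes did not differ between bins by the same amount. The summed level of GFPhigh over GFPlow had a log2 ratio of 0.16 (interval 0.11 to 0.20) for complex I, 0.024 (interval -0.10 to 0.15) for complex II and 0.24 (interval 0.17 to 0.32) for complex III. For complex IV the ratio was 0.10 (interval 0.050 to 0.14) and for complex V it was 0.27 (interval 0.23 to 0.31). As sums, complex V and complex III were the farthest above 0, and the interval of complex II included 0. By the median of its genes complex III was at 0.18, as was complex I, while complex V was at 0.29. Complex V took 34.3% of all subunit UMIs in GFPlow (exact Clopper-Pearson interval 33.8 to 34.9%), 34.3% in GFPmed (33.8 to 34.8%) and 36.4% in GFPhigh (35.9 to 36.9%). This share does not depend on the scaling between bins, and its GFPhigh interval lies above those of the other bins. Complex IV went from 27.02% and 27.11% to 25.4% (24.9 to 25.9%), and complex III was at its highest share in GFPmed, 10.5% (10.2 to 10.8%) beside 9.69% in GFPlow and 10.1% in GFPhigh. A sum is led by its most abundant genes, so the members are described below.

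**Figure D2:**
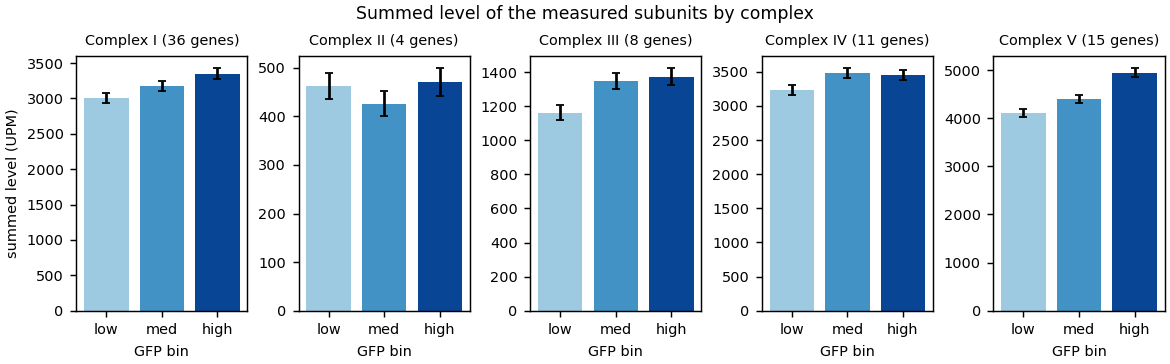
Summed level in UPM (y axis, from 0) of the measured subunits of each complex in the 3 GFP bins (x axis), 1 library a bin, with exact 95% Poisson intervals as error bars. Complex V steps up from 4107 to 4398 and 4948 UPM, while complex IV is at 3479 and 3455 UPM in GFPmed and GFPhigh, and complex II is lowest in GFPmed.

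Complex I, the NADH dehydrogenase, was higher in GFPhigh for 25 of its 36 measured genes, with 13 past 1.2-fold, 1 lower by that fold, and a median log2 ratio of 0.18. Of all 8633 genes 54.6% were higher, 26.7% past 1.2-fold, and 20.0% lower by that fold. The complex had a summed level of 3008 UPM (GFPlow), 3181 UPM (GFPmed) and 3351 UPM (GFPhigh), and 9 of its genes were higher at each successive bin while 15 were highest in GFPmed. The arms are given separately, and the difference between them was not tested. In the NADH-oxidising arm 7 of 8 genes were higher, 5 of them past 1.2-fold, with a median of 0.37. In the quinone-binding arm 4 of 8 were higher and the median was -0.00087. The distal and proximal parts of the membrane arm, where protons are pumped, lay between, with 7 of 11 and 7 of 9 higher and medians of 0.18 and 0.19. The summed levels differed less than the medians, at 0.20 (interval 0.10 to 0.30) for the NADH-oxidising arm and 0.086 (interval -0.015 to 0.19) for the quinone-binding arm, and those intervals overlap. The arms were assigned from textbook knowledge of the complex after the files had been seen.

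Ndufv1 (chr19:4007384-4012806, minus strand, on GRCm38 in GENCODE M21, as are all gene positions here), the flavoprotein that takes electrons from NADH, was at 23.8 UPM (GFPlow), 29.1 UPM (GFPmed) and 40.5 UPM (GFPhigh). Its log2 ratio of GFPhigh over GFPlow was 0.76 (interval 0.28 to 1.27), and it was past 1.2-fold at both steps, although the interval of the first step, 0.28 (interval -0.23 to 0.81), includes 0. Over the alternative settings that first step ranged from -0.058 to 0.36, so its place among the genes past the fold at both steps rests on the setting, and GFPhigh over GFPlow ranged from 0.40 to 0.80. Ndufs1, the large iron-sulfur protein of the same arm, was at 40.2 UPM (GFPlow), 39.4 UPM (GFPmed) and 53.7 UPM (GFPhigh), highest in GFPhigh (0.42, interval 0.022 to 0.82, for GFPhigh over GFPlow). Its first step ranged from -0.19 to 0.41 over the alternative settings and was highest without cells of the cycling list, so which bins it separates rests on the setting, and GFPhigh over GFPlow ranged from 0.28 to 0.79. Ndufs6, an accessory subunit of that arm, was at 76.8 UPM (GFPlow), 81.2 UPM (GFPmed) and 104.8 UPM (GFPhigh), again highest in GFPhigh (0.45, interval 0.17 to 0.73, for GFPhigh over GFPlow), and its second step ranged from 0.24 to 0.41 over the settings. Ndufv2, the partner of Ndufv1, was at 77.2 UPM (GFPlow), 76.8 UPM (GFPmed) and 102 UPM (GFPhigh), with GFPhigh again the bin that stood out. Ndufs4 and Ndufv3, also of this arm, were instead highest in GFPmed, at 64.5, 78.8 and 67.8 UPM and 77.2, 86.4 and 71.4 UPM, and neither interval of GFPhigh over GFPlow excluded 0.

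In the quinone-binding arm Ndufs8, an iron-sulfur subunit, was higher at each step at 30.8, 35.8 and 39.2 UPM, with an interval of GFPhigh over GFPlow that includes 0. Ndufs3 was at 48.03, 52.5 and 45.8 UPM, Ndufs7 at 55.8, 64.5 and 55.9 UPM, and Ndufa6 at 283, 295 and 281.9 UPM, each highest in GFPmed with GFPlow and GFPhigh close to each other. Ndufa7, an accessory subunit, was at 85.4 UPM (GFPlow), 120.6 UPM (GFPmed) and 102 UPM (GFPhigh), and its first step of 0.50 (interval 0.24 to 0.76) was the largest of any complex I gene. Ndufa9, an accessory subunit of this arm, had the lowest value of any complex I gene for GFPhigh over GFPlow, -0.30 (interval -0.85 to 0.23). In the membrane arm Ndufb6 was at 45.2 UPM (GFPlow), 47.4 UPM (GFPmed) and 61.7 UPM (GFPhigh), highest in GFPhigh. Its ratio of GFPhigh over GFPlow ranged from 0.048 to 0.55, lowest when each cell was thinned to 500 UMIs, so it too rests on the setting. Thinning leaves fewer UMIs behind each ratio. In contrast to Ndufb6, Ndufb9 and Ndufb5 reached their GFPhigh level already in GFPmed (91.1, 117.03 and 116.7 UPM, and 75.9, 98.3 and 96.9 UPM). Ndufa1 was the reverse, at 109.6 UPM (GFPlow), 87.97 UPM (GFPmed) and 113 UPM (GFPhigh), with its lowest level in GFPmed and an interval below 0 for the first step (-0.32, interval -0.58 to -0.055). The transcript ends of Ndufs1 and Ndufb6 overlap Ino80dos and Smim27 on the other strand, and whether counting used strand is not given in the sources used here.

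Complex II, succinate dehydrogenase, is the only complex that belongs both to the respiratory chain and to the tricarboxylic acid cycle, and it showed no common direction. Sdha, the flavoprotein that oxidises succinate, was at 221.3 UPM (GFPlow), 179.9 UPM (GFPmed) and 220.7 UPM (GFPhigh). The intervals of GFPlow and GFPhigh overlap, and it was lowest in GFPmed, with -0.30 (interval -0.48 to -0.12) for the first step and 0.29 (interval 0.11 to 0.48) for the second. Over the alternative settings those steps ranged from -0.62 to -0.22 and from 0.22 to 0.55, farthest from 0 when thinned. Sdhb, the iron-sulfur subunit, was at 84.98 UPM (GFPlow), 93.5 UPM (GFPmed) and 96.5 UPM (GFPhigh), with overlapping intervals in all 3 bins (0.18, interval -0.10 to 0.46, for GFPhigh over GFPlow). The membrane anchors were split, Sdhc at 91.1, 89.2 and 79.7 UPM and Sdhd at 64.9, 62.5 and 73.1 UPM, and the intervals of GFPhigh over GFPlow included 0 for both (-0.19 and 0.17). Of the 4 genes 0 passed 1.2-fold between GFPlow and GFPhigh in either direction.

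The symbols of complex II also take in its assembly factors, and the gene with the largest ratio of all 79 was among them. Sdhaf1 (chr7:30321406-30323895, minus strand) encodes a factor that helps iron-sulfur clusters enter Sdhb. It was at 18.9 UPM (GFPlow), 35.4 UPM (GFPmed) and 52.4 UPM (GFPhigh), from 46 UMIs in GFPlow and 89 in GFPmed. The GFPlow interval overlaps neither of the others, and the log2 ratio of GFPhigh over GFPlow was 1.46 (interval 0.97 to 2.0), with 0.90 (interval 0.38 to 1.45) for the first step and 0.56 (interval 0.16 to 0.98) for the second. Across the alternative settings the ratio of GFPhigh over GFPlow ranged from 1.26 to 1.83. The end of its transcript overlaps E130208F15Rik on the other strand. Sdhaf2, which aids the attachment of flavin to Sdha, was at 77.2, 83.99 and 96.0 UPM, a smaller difference (0.31, interval 0.027 to 0.60). Sdhaf4, which binds Sdha before assembly, was at 34.1, 33.4 and 32.2 UPM, with overlapping intervals. The interval of Sdhaf1 for GFPhigh over GFPlow lies above those of Sdhaf2, Sdhaf4 and the 4 subunits of complex II.

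Complex III, the cytochrome bc1 complex, was higher in GFPmed and GFPhigh than in GFPlow, and the intervals of GFPmed and GFPhigh overlapped. Its sum was 1161 UPM (GFPlow), 1348 UPM (GFPmed) and 1373 UPM (GFPhigh), with 0.22 (interval 0.14 to 0.29) for the first step and 0.027 (interval -0.044 to 0.10) for the second. Uqcrh (chr4:116066965-116075071, minus strand), the acidic hinge protein near cytochrome c1, was at 418 UPM (GFPlow), 521 UPM (GFPmed) and 551 UPM (GFPhigh). Both upper bins lay above GFPlow, with 0.32 (interval 0.20 to 0.44) for the first step and 0.40 (interval 0.28 to 0.52) for the whole range. Uqcrq, a small membrane subunit, was at 113 UPM (GFPlow), 137.7 UPM (GFPmed) and 136.1 UPM (GFPhigh), with both upper bins above GFPlow. Uqcrfs1, the Rieske iron-sulfur protein that passes electrons from ubiquinol, was at 92.4 UPM (GFPlow), 113 UPM (GFPmed) and 87.2 UPM (GFPhigh), highest in GFPmed, and its second step was -0.38 (interval -0.65 to -0.11). That step ranged from -0.46 to -0.21 over the alternative settings, and the first step from 0.16 to 0.37. Of the core proteins, Uqcrc1 was at 79.6, 87.97 and 91.2 UPM with overlapping intervals, and Uqcrc2 was at 141.6, 138.1 and 166.5 UPM, highest in GFPhigh (0.23, interval 0.019 to 0.45, for GFPhigh over GFPlow). The ratio of Uqcrc2 ranged from 0.062 to 0.49, lowest when thinned and highest without cells of the cycling list. The 7 genes above 0 for GFPhigh over GFPlow leave out only Uqcrfs1 (-0.082). Of the 8 genes 2 passed 1.2-fold, beside 26.7% of all genes, and 3 had an interval above 0, with a median of 0.18. The sum of the complex is led by Uqcrh, which had the most UMIs of the 8 (3578). The annotation lists a pair of pseudogenes with the symbol of Uqcrh and an overlapping gene (Gm12854) on the other strand, and Pdzd9 overlaps Uqcrc2, so reads of those genes could have been split.

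Complex IV, cytochrome c oxidase, split into 4 genes whose interval of GFPhigh over GFPlow lay above 0 and 7 whose interval included 0. Among all 2317 genes with at least 500 UMIs that interval lay above 0 for 533 and below 0 for 450. Cox7b, a small subunit (chrX:106015700-106022450, plus strand), was at 110.4 UPM (GFPlow), 169.97 UPM (GFPmed) and 158.1 UPM (GFPhigh). Both upper bins lay above GFPlow, with 0.62 (interval 0.40 to 0.85) for the first step and 0.52 (interval 0.29 to 0.75) for the whole range. Cox5b, a zinc-binding subunit on the matrix side, was at 150.3 UPM (GFPlow), 172 UPM (GFPmed) and 203.9 UPM (GFPhigh), higher at each step and 0.44 (interval 0.24 to 0.64) over the range. Cox7a2 and Cox6c, both small membrane subunits, followed the same order at 161.3, 194.2 and 207.5 UPM and 267.3, 296 and 337 UPM, with ratios of 0.36 and 0.33. Over the alternative settings the first step of Cox7a2 ranged from 0.062 to 0.35 and the second step of Cox6c from 0.11 to 0.27. Cox6c overlaps Vps13b on the other strand.

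Cox4i1, the largest nuclear subunit, was at 585 UPM (GFPlow), 609 UPM (GFPmed) and 618 UPM (GFPhigh), and its intervals overlap in all 3 bins (0.081, interval -0.026 to 0.19). Cox5a, a subunit on the matrix side, was at 237.3, 228.9 and 249 UPM, Ndufa4 at 181, 173.9 and 189 UPM and Cox8a at 468, 511 and 485 UPM, with ratios of GFPhigh over GFPlow between 0.051 and 0.071. Cox7c, a small membrane subunit, was at 441, 435 and 427 UPM with an interval that includes 0. Cox6a1 and Cox6b1 were highest in GFPmed and lowest in GFPhigh, at 374.4, 416 and 346 UPM and 259.5, 273.1 and 234 UPM. Their second steps were -0.27 (interval -0.40 to -0.13) and -0.22 (interval -0.39 to -0.058). The step of Cox6a1 depended on the setting. It was -0.10 with equal weight per cell, -0.088 when thinned and -0.0997 without cells of the cycling list, and its first step changed sign to -0.023 when thinned. That of Cox6b1 ranged from -0.30 to -0.17, and its ratio of GFPhigh over GFPlow was lowest when thinned, at -0.35. Isoforms known from other tissues were at or near 0. Cox4i2, Cox6a2, Cox8b and Cox8c had 0 UMIs in the cells used, Cox7a1 had 1, Cox7b2 5 and Cox6b2 28. The remaining symbols under the minimum of 50 UMIs were Ndufa4l2 with 4, Sdhaf3 with 15 and Atp5s with 24. Gm20388 on the same strand and Gm26631 on the other overlap the ends of Cox4i1 and Cox5a.

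Cox7a2l, which by its symbol sits with complex IV, encodes a protein with a described role in joining complexes III and IV into supercomplexes. Neither its allele in these mice nor supercomplexes were examined here. It had the most UMIs of all 79 genes and was at 653 UPM (GFPlow), 777 UPM (GFPmed) and 658 UPM (GFPhigh). It was highest in GFPmed, with 0.25 (interval 0.15 to 0.35) for the first step and -0.24 (interval -0.34 to -0.14) for the second, and the intervals of GFPlow and GFPhigh overlap. Atp5sl, whose product takes part in complex I assembly despite its symbol, was at 26.7, 19.9 and 18.5 UPM and its ratio of GFPhigh over GFPlow was -0.52 (interval -1.12 to 0.053).

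**Figure D3:**
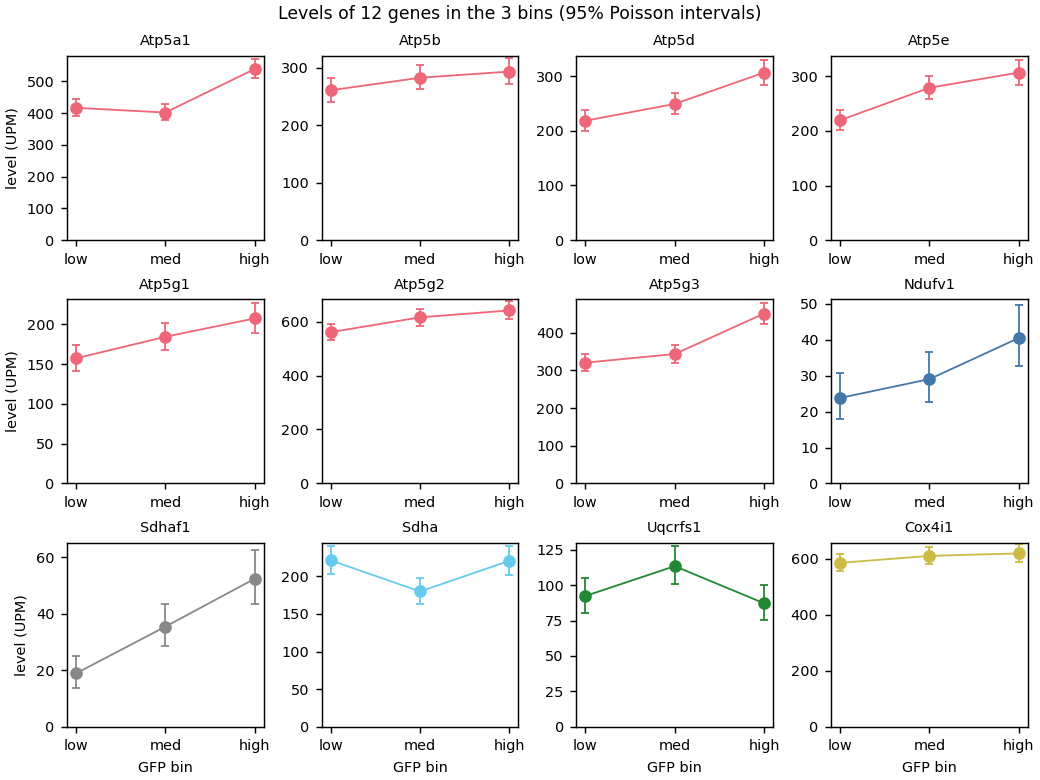
Level in UPM (y axis of each panel, from 0, own scale) of 12 genes in GFPlow, GFPmed and GFPhigh (x axis), 1 library a bin, with exact 95% Poisson intervals. The complex V genes are higher in GFPhigh than in GFPlow in every panel, Sdhaf1 goes from 18.9 to 52.4 UPM, and Sdha, Uqcrfs1 and Cox4i1 are near their GFPlow level in GFPhigh.

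Complex V, the ATP synthase, had the largest summed ratio of GFPhigh over GFPlow among the 5 complexes, and the highest share of genes above 0. Of its 15 measured genes 14 were higher in GFPhigh than in GFPlow, 8 of them past 1.2-fold, and 12 had an interval above 0, with a median log2 ratio of 0.29. Of all 8633 genes 54.6% were higher and 26.7% past 1.2-fold. Among the 2317 genes with at least 500 UMIs, 533 had an interval above 0. Levels were higher at each successive bin for 11 of 15, beside 21.1% of all genes. Atp5h, a stalk subunit, was the 1 gene below 0. It was at 408 UPM (GFPlow), 428 UPM (GFPmed) and 373 UPM (GFPhigh), a ratio of -0.13 (interval -0.26 to 0.0041). The larger part of the difference came at the second step, 0.17 (interval 0.13 to 0.21) beside 0.10 (interval 0.060 to 0.14) at the first. That order depends on the scaling, since with TMM scaling the second step was 0.093 and the first 0.14. The ratio of GFPhigh over GFPlow stayed between 0.21 and 0.29 over all alternative settings.

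The F1 head, the part that turns ADP into ATP, had a summed ratio of 0.35 (interval 0.29 to 0.42), and all 5 of its genes had intervals above 0. Atp5a1, the alpha subunit, was at 417 UPM (GFPlow), 402 UPM (GFPmed) and 539 UPM (GFPhigh). GFPhigh was above GFPmed by 0.42 (interval 0.30 to 0.54), and the intervals of GFPlow and GFPmed overlap. Over the alternative settings GFPhigh over GFPlow ranged from 0.24 to 0.40. Atp5b, the catalytic beta subunit that pairs with alpha, differed less. It was at 261.1 UPM (GFPlow), 283 UPM (GFPmed) and 293.8 UPM (GFPhigh), with 0.17 (interval 0.011 to 0.33) over the range, and that ratio ranged from 0.080 to 0.29 over the settings. Atp5c1, the rotating gamma subunit, was at 284, 262.7 and 339 UPM, with the same pattern as Atp5a1. The delta and epsilon subunits of the central stalk, Atp5d (chr10:80138632-80145818, plus strand) and Atp5e (chr2:174461072-174464105, minus strand), were higher at each bin. Atp5d was at 218.4 UPM (GFPlow), 249 UPM (GFPmed) and 306.6 UPM (GFPhigh). Atp5e was at 219.6 UPM (GFPlow), 279.03 UPM (GFPmed) and 306.998 UPM (GFPhigh). Their ratios of GFPhigh over GFPlow were 0.49 (interval 0.32 to 0.65) and 0.48 (interval 0.32 to 0.65), and the GFPlow intervals did not overlap those of GFPhigh. Over the settings the first step of Atp5e ranged from 0.18 to 0.42 and the second step of Atp5d from 0.20 to 0.33. The ratios of the 5 head genes, whose proteins are present in the head in fixed numbers, ran from 0.17 to 0.49.

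The peripheral stalk and membrane part was less different, with a sum of 0.16 (interval 0.10 to 0.22). Atp5o, Atp5j2, Atp5j and Atp5l were higher in GFPhigh with intervals above 0, at ratios of 0.31, 0.29, 0.29 and 0.21. Atp5k, the e subunit that helps dimers form, was highest in GFPmed, at 131.8, 173.2 and 149.3 UPM, and a pseudogene carries its symbol. Atp5f1, the b subunit of the stalk, was at 184.7, 190.3 and 208.8 UPM with overlapping intervals.

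The c ring is the rotor that protons turn, and its c subunit is encoded by Atp5g1, Atp5g2 and Atp5g3. The mature protein is the same from each, so these genes differ in their promoters and in the import sequences that are cut off, not in the final subunit. The 120 bases before each start are shown because the genes give 1 subunit at different levels. They are from RefSeq on GRCm38.p6, read 5′ to 3′ on the minus strand, where all 3 genes lie, at chr11:96075632-96075751 for Atp5g1, chr15:102671048-102671167 for Atp5g2 and chr2:73911327-73911446 for Atp5g3. Capitals mark matches to the motifs named further on, and the genes were chosen for printing after the matches had been seen.
Atp5g1: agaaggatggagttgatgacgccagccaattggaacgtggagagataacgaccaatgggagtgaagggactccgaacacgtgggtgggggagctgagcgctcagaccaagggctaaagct
Atp5g2: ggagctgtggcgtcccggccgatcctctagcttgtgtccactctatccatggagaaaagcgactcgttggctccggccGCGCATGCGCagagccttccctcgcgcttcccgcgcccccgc
Atp5g3: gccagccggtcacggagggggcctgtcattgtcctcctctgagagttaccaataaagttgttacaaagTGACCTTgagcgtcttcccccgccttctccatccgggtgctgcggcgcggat
The window of Atp5g2 holds a pair of overlapping NRF1 matches, 1 on each strand, starting 42 and 39 bases before the start. The window of Atp5g3 holds an estrogen-related receptor match, on the reverse strand, that begins 52 bases before the start. None of the searched motifs lies wholly within the window of Atp5g1, and an SP motif of Atp5g2 that begins 5 bases before the start runs past the printed end.

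All c subunit genes were higher in GFPhigh, by different amounts. Atp5g3 was at 321 UPM (GFPlow), 344 UPM (GFPmed) and 451 UPM (GFPhigh), with GFPhigh above the other bins and 0.49 (interval 0.36 to 0.63) for GFPhigh over GFPlow. Atp5g1 was at 157.2 UPM (GFPlow), 184.3 UPM (GFPmed) and 207.5 UPM (GFPhigh), higher at each bin (0.40, interval 0.20 to 0.60, over the range). Its first step was 0.23 (interval 0.031 to 0.43) and its second 0.17 (interval -0.017 to 0.36). Over the alternative settings those steps ranged from 0.083 to 0.30 and from 0.093 to 0.21. Atp5g2 was at 560.8 UPM (GFPlow), 616 UPM (GFPmed) and 641 UPM (GFPhigh), with the smallest ratio (0.19, interval 0.086 to 0.30). Over the alternative settings GFPhigh over GFPlow ranged from 0.38 to 0.53 for Atp5g3, from 0.20 to 0.41 for Atp5g1 and from 0.11 to 0.24 for Atp5g2, and the second step of Atp5g2 was -0.056 when thinned. Among the UMIs of the 3 genes, Atp5g2 held 53.99% in GFPlow (exact Clopper-Pearson interval 52.03 to 55.95%), 53.8% in GFPmed (52 to 55.7%) and 49.3% in GFPhigh (47.5 to 51.2%). Atp5g3 held 30.9%, 30.04% (28.4 to 31.8%) and 34.7% (32.98 to 36.4%), and Atp5g1 between 15.1% and 16.1%. The mix of c subunit transcripts thus did not differ beyond counting error between GFPlow and GFPmed, and held more Atp5g3 and less Atp5g2 in GFPhigh. These shares, like those of the complexes, do not depend on the scaling between bins.

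Promoter windows of RefSeq (250 bases before to 50 after the start, both strands searched) were found for 68 of the 79 genes and for 6994 of all 8633. NRF1, a factor named for its sites at respiratory genes, was searched as GCGCATG and had a match in 19.1% of the 68, beside 8.95% of all. The estrogen-related receptor motif AAGGTCA was in 11.8% beside 3.79%. YY1, as ATGGCGG, was in 17.6% beside 11.2%, and the ETS motif CCGGAAG in 26.5% beside 24.05%. The SP motif GGGCGGG was in 32.4%, beside 52.9%. In complex V 4 of 14 genes held the estrogen-related receptor motif and 3 held that of NRF1. No searched motif contains another. A match describes letters in a window and does not show that the factor binds there.

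Because cells of GFPmed were deeper, the summed level was also taken among cells of like depth. Among cells of 500 to 999 UMIs the log2 ratio of GFPhigh over GFPlow was 0.16 (interval 0.11 to 0.20), among those of 1000 to 1999 it was 0.14 (interval 0.11 to 0.17), and among those of at least 2000 it was 0.26 (interval 0.20 to 0.32). The difference was thus present in each depth class. For GFPmed over GFPlow the values were 0.044 (interval -0.016 to 0.10), 0.077 (interval 0.048 to 0.11) and 0.14 (interval 0.076 to 0.20), and the interval of the shallowest class includes 0. Cells with fewer than 2 UMIs of the other-cell markers held 49, 43 and 46 erythroid UMIs in all in GFPlow, GFPmed and GFPhigh. Among them the ratio was 0.17 (interval 0.15 to 0.20) for GFPhigh over GFPlow and 0.083 (interval 0.059 to 0.11) for GFPmed over GFPlow. Among cells with at least 2 such UMIs these ratios were 0.19 (interval 0.13 to 0.26) and 0.23 (interval 0.17 to 0.30).

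**Figure D4:**
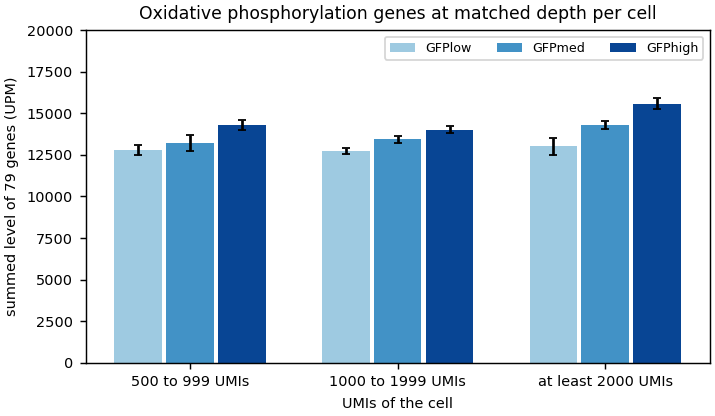
Summed level of the 79 genes in UPM (y axis, from 0) among cells grouped by their UMIs (x axis), for the 3 GFP bins, with exact 95% Poisson intervals. In each depth class the order is GFPlow, GFPmed, GFPhigh, and the GFPlow and GFPmed intervals overlap in the class of 500 to 999 UMIs.

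Per cell, thinned to 500 UMIs without replacement, the 79 genes gave a mean of 6.39 UMIs in GFPlow (SD 2.75 over its cells), 6.69 in GFPmed (SD 2.84 over 1537 cells) and 7.17 in GFPhigh (SD 2.93 over 1775 cells). Unthinned means were 14.7, 22.5 and 18.5. The variance was 1.18, 1.2 and 1.2 times the mean. The 10th to 90th percentiles over cells were 3 to 10, 3 to 11 and 4 to 11 UMIs. No single cell held more than 2.92% of the UMIs of any measured gene.

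Cells were also divided by whether they held at least 2 UMIs of lists for early TCR-response, effector, central and cycling genes. Among cells with early TCR-response transcripts, such as Nr4a1, Egr1 and Tnfrsf9, GFPhigh over GFPlow was 0.20 (interval 0.12 to 0.29), and among the rest it was 0.16 (interval 0.14 to 0.18). The difference between bins was thus also present among cells with fewer than 2 UMIs of that list. Such cells may still hold those transcripts, counted or missed at this depth. Whether the difference is present among cells without any of them was not tested. Cells with cycling transcripts had a higher summed level than the rest of their bin, by 0.041 (interval 0.0042 to 0.077) in GFPlow, 0.12 (interval 0.093 to 0.16) in GFPmed and 0.12 (interval 0.088 to 0.15) in GFPhigh. Cells that pass any of these rules had higher median UMIs in each bin. At 1000 to 1999 UMIs the interval of cells in against cells out included 0 in each bin for the early TCR-response, effector and cycling lists. For the central list (Igfbp4, Tcf7 and others) it did so in GFPlow and GFPmed, while in GFPhigh cells in the list against the rest had a log2 ratio of -0.098 (interval -0.14 to -0.053).

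Other mitochondrial genes were described in lists chosen for their roles. Of all 8633 genes 54.6% were higher in GFPhigh than in GFPlow, 26.7% were past 1.2-fold and 20.0% were lower by it. Carriers of electrons and exchange of adenine nucleotides had a median log2 ratio of GFPhigh over GFPlow of 0.28, with 16 of 20 higher, 11 past 1.2-fold and 2 lower by it. Slc25a5, which exchanges ADP and ATP across the inner membrane, was at 380.2 UPM (GFPlow), 408 UPM (GFPmed) and 519 UPM (GFPhigh), higher at each step (0.45, interval 0.32 to 0.57). Atpif1, the inhibitor that keeps ATP synthase from running backwards, was at 25.0 UPM (GFPlow), 59.3 UPM (GFPmed) and 55.5 UPM (GFPhigh). Its first step was 1.24 (interval 0.80 to 1.70), larger than that of any of the 79 genes, and the upper bins did not differ beyond their intervals. Mitochondrial protein import had a median of 0.17, with 21 of 27 higher, 12 past 1.2-fold and 1 lower by it. Hspd1, the chaperonin that folds imported proteins, was at 96.5, 94.3 and 167.4 UPM, and Timm8b, an import chaperone, at 38.6, 38.2 and 55.9 UPM, both with GFPhigh alone above the others. Mitochondrial ribosomal proteins had a median of 0.16, with 56 of 76 higher, 24 past 1.2-fold and 8 lower by it. Among those with at least 100 UMIs over GFPlow and GFPhigh, Mrpl45 and Mrps6 had the largest ratios. Mrpl45 was at 31.6, 31.05 and 51.1 UPM and Mrps6 at 50.9, 50.9 and 80.2 UPM. For both the intervals of GFPlow and GFPmed overlap.

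The lists for pathways that feed the chain or stand beside it stand here beside all 8633 genes, whose median was 0.036. Of those genes 54.6% were higher in GFPhigh than in GFPlow, 26.7% were past 1.2-fold and 20.0% were lower by it. The tricarboxylic acid cycle had a median of 0.12 with 14 of 22 higher, 7 past 1.2-fold and 5 lower by it. Idh3a, a subunit of the NAD-dependent isocitrate dehydrogenase, was at 75.5 UPM (GFPlow), 54.1 UPM (GFPmed) and 46.2 UPM (GFPhigh), lower at each step (-0.70, interval -1.07 to -0.35), and Dlst, of the oxoglutarate dehydrogenase, was at 39, 36.2 and 27.3 UPM. Fatty acid oxidation had 7 of 14 higher, 3 past 1.2-fold, 1 lower by it, and a median of -0.023. Cpt1a, which lets fatty acids into mitochondria, was at 66.1 UPM (GFPlow), 64.5 UPM (GFPmed) and 45.4 UPM (GFPhigh), lowest in GFPhigh (-0.54, interval -0.91 to -0.18), while Eci2, an enoyl-CoA isomerase, was at 25.9, 26.7 and 35.2 UPM with an interval that includes 0. Glycolysis had 8 of 14 higher, 4 past 1.2-fold, 3 lower by it, and a median of 0.022. It had Gapdh at 252, 271.1 and 339 UPM and the glucose transporter Slc2a3 at 60.3, 46.2 and 40.96 UPM in opposite directions. Reactive oxygen defence had 5 of 12 higher, 2 past 1.2-fold, 3 lower by it, and a median of -0.036. Its Sod2, the superoxide dismutase of the matrix, was at 84.98, 70.1 and 67.4 UPM, and Gsr, glutathione reductase, at 66.9, 50.2 and 46.7 UPM, both lower in GFPhigh than in GFPlow. In that list the interval lay above 0 for 2 genes and below 0 for 2, and the highest ratio was 0.61.

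Of 42 measured assembly factors of the complexes, 29 were higher in GFPmed than in GFPlow (median 0.12) and 12 were higher in GFPhigh than in GFPmed (median -0.15), so that GFPhigh over GFPlow had 18 higher, 10 past 1.2-fold, 9 lower by it, and a median of -0.032. This list shares the Sdhaf genes and Cox7a2l with the 79. Of all 8633 genes 45.6% were higher at the first step and 59.7% at the second. Over the whole range 54.6% of them were higher, 26.7% past 1.2-fold, and 20.0% lower by it. Coa6, which helps deliver copper to complex IV, was at 36.5 UPM (GFPlow), 30.6 UPM (GFPmed) and 24.2 UPM (GFPhigh), lower at each step. Regulators of mitochondrial biogenesis had 9 of 17 higher, 2 past 1.2-fold, 5 lower by it, and a median of 0.00081. Within that list Myc, a growth-related transcription factor, was at 114.5 UPM (GFPlow), 152.1 UPM (GFPmed) and 196 UPM (GFPhigh), a ratio of 0.77 (interval 0.56 to 1.0) over the range. Pprc1, a coactivator related to PGC-1, was at 31.2 UPM (GFPlow), 29.1 UPM (GFPmed) and 12.3 UPM (GFPhigh), lowest in GFPhigh (-1.32, interval -2.02 to -0.70). Cytosolic ribosomal proteins, for comparison, were higher in GFPmed than in GFPlow for 80 of 84 and higher in GFPhigh than in GFPmed for 12 of 84. Among those with at least 100 UMIs over GFPlow and GFPhigh, Rps27l and Rpl26 had the largest ratios of GFPhigh over GFPlow. Rps27l was at 113, 119.4 and 178.8 UPM and Rpl26 at 81.3, 111.5 and 115.8 UPM. Because that list holds so many UMIs, levels scaled without it are given beside the main ones where they differ.

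**Figure D5:**
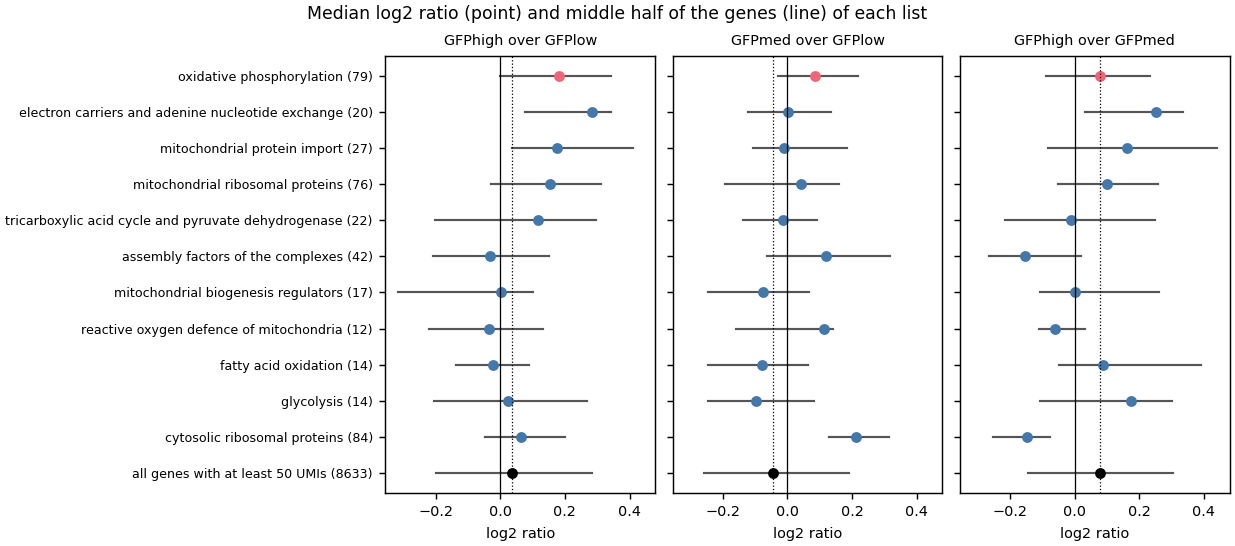
Median log2 ratio (points, x axis) and middle 50% of the genes (lines) for the oxidative phosphorylation genes, 10 related lists and all genes (y axis, number of genes in brackets), for the 3 pairs of bins. The solid line marks 0 and the dotted line the all-gene median. The oxidative phosphorylation genes sit above the dotted line in the left and middle panels and on it in the right panel, where assembly factors and cytosolic ribosomal proteins lie to its left.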

How the data were processed

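Single-cell RNA was measured in 3 libraries of splenic Tregs, 1 per GFP bin. The authors deposited whole UMI counts, 1 column a cell, and name TopHat2, SAMtools and the mm10 build, per the submitters' processing notes. How reads were assigned to genes and UMIs collapsed, the annotation and tool versions are not given in the sources used here. All 6106 columns matched a labelled cell, and 0 were left unused. Cells under 500 UMIs were left out (249, 145 and 277), and no doublets were removed.

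The genes, lists and alternatives were chosen with earlier results of these data known. The arms of complex I and parts of complex V were assigned after the data had been seen. A level is the bin's sum of a gene's UMIs per 1000000. Log2 ratios add 0.5 UMI to each count. Intervals are exact Poisson for levels, exact conditional binomial for ratios and exact Clopper-Pearson for shares, at 95%, and treat UMIs as independent. With 1 library a bin there was no test, and a fold of 1.2 served as a rule of size. Levels stand beside the 8633 genes with at least 50 UMIs.

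In each complex the text names the 4 genes with the largest ratio of GFPhigh over GFPlow (at least 100 UMIs in those bins), genes past the fold at both steps, the catalytic core, the c subunit genes and paralogue pairs. It also names the 2 genes of each other list with the largest ratio in either direction, under the same minimum of 100 UMIs. Genes below that minimum had larger ratios in some lists, such as 0.88 in fatty acid oxidation and -0.80 in mitochondrial protein import. A gene of complex I that the rule names is not reported here, though sums and counts include it. Genes named beyond this rule were chosen after their values were seen, to show how an arm or part varied. Symbols matched GENCODE M21 (GRCm38) for 77 of 79 genes. Of these, 14 share the last 500 bases with another gene on either strand, and 5 have pseudogenes of their symbol. Alternatives covered cell and gene minimums, thinning, scaling (edgeR 4.0.16, DESeq2 1.42.0), weights and left-out cells. On simulated Poisson counts for 8633 genes, GFPhigh over GFPlow, 96.0% of intervals held the true ratio, and the median error was 0.0095 for 100 genes at a log2 ratio of 1. The intervals assume such counts, so this checks the calculation only. The simulation held no variation between cells or libraries. Python 3.11.15, numpy 2.4.6, scipy 1.17.1, pandas 2.3.3, matplotlib 3.10.9 and R 4.3.3 were used.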

Additional observations from a re-analysis of the deposited data

How the results depend on the processing

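With 1 library a bin, leaving out a replicate was not an option. No paired analysis was possible because each bin has 1 library and no result comes from a test. Intervals cover counting error only, and for 36 of 79 members, the deepest with 781 UMIs, the interval of GFPhigh over GFPlow reached more than 1.2-fold to either side, so that a difference of that size was often not detectable. Of the alternative summary values, 69 moved by more than their tolerance. A further 4, also beyond it, changed sign where the reported interval excludes 0. That tolerance was the counting interval for a summed ratio, 1.5 times for a number of genes, and for a median the members' median half-interval over the square root of their number. Of the ratios of sums and medians 16 changed sign, those 4 included. The other 12 were complex II for GFPhigh over GFPlow (-0.0044 with all cells, -0.012 with TMM and median-of-ratios scaling) and, for GFPhigh over GFPmed, complex III (-0.050 to -0.0042 under 4 settings) and complex IV (0.0070 to 0.047 under 5 settings).

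For GFPhigh over GFPlow the median log2 ratio of the 79 genes was 0.15 with trimmed-mean (TMM) or median-of-ratios scaling, with equal weight per cell and without the 2% of cells with the most UMIs, and 0.13 without cells of the cycling list. The number at least 1.2-fold lower was 1 with all cells, with equal weight or without the genes that are no subunits, 4 without cycling cells or without the deepest 2%, and 0 at a minimum of 500 UMIs. The summed ratio was 0.14 with TMM and with median-of-ratios scaling and 0.15 without cycling cells, where complex I was 0.11 and complex V 0.21.

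For GFPmed over GFPlow the median was 0.13 with TMM and with median-of-ratios scaling and 0.16 without ribosomal protein genes. The number at least 1.2-fold higher was 10 with equal weight. The number lower by that fold was 5 among cells with at least 1000 UMIs, without cells of other types, without cycling cells or without the deepest 2%, 1 without ribosomal protein genes, and 10 when thinned. The summed ratio was 0.15 with TMM and with median-of-ratios scaling, 0.18 without ribosomal protein genes, 0.066 when thinned, 0.083 without cells of other types, 0.078 without cycling cells and 0.086 without the deepest 2%. Without ribosomal protein genes complex I was 0.16, complex III 0.29, complex IV 0.18 and complex V 0.17. When thinned, complex I was 0.035, complex II -0.28 and complex IV 0.045. Complex IV was 0.050 with equal weight, and complex V was 0.14 with TMM and with median-of-ratios scaling and 0.056 without cycling cells. Cox6a1 changed sign to -0.023 when thinned.

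For GFPhigh over GFPmed the median was 0.0029 with TMM, 0.0022 with median-of-ratios scaling, 0.013 without ribosomal protein genes, 0.12 when thinned and 0.11 without cells of other types. The number higher by 1.2-fold was 11 at a minimum of 500 UMIs. The number lower was 2 with all cells, 13 with TMM and with median-of-ratios scaling, 12 without ribosomal protein genes and 7 without cycling cells. The summed ratio changed sign to -0.0079 with TMM and -0.0085 with median-of-ratios scaling, and was 0.0023 without ribosomal protein genes, 0.10 when thinned and 0.092 without cells of other types. Complex I changed sign to -0.0015 with TMM and -0.0022 with median-of-ratios scaling, and was 0.0087 without ribosomal protein genes. With TMM and median-of-ratios scaling, complex III was -0.050 and -0.050, complex IV -0.087 and -0.088, and complex V 0.093 and 0.092. Without ribosomal protein genes complex IV was -0.077 and complex V 0.10. When thinned, complex II was 0.33 and complex IV 0.047. The causes of these shifts were not tested.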
